A study of Mus musculus with 4 samples.

Results

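The genes described here encode the enzyme families that process drugs, toxins and other foreign compounds in the liver. They were chosen by name on the array: every gene of chromosomes 1 to 19 whose name begins with Cyp1, Cyp2, Cyp3, Cyp4, Ugt1, Ugt2, Gsta, Gstm, Gstt, Gstp, Sult or Ces followed by a digit or letter. These prefixes took 131 of 17965 named genes and 307 of 161460 autosomal probes, with no Gstp gene among them. Of the 131 genes, 45 had 1 probe, 43 had 2 and 43 had 3 or more. The prefixes also took 12 Cyp genes of other families, which act on steroids, vitamins and retinoids or have no settled substrate (such as Cyp11a1, Cyp26c1 and Cyp27a1), and these are given apart from the other 119 where they differ.

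Genomic DNA of liver tumours from 4 mice, numbered 239, 240, 244 and 252, was compared with normal liver DNA by array comparative genomic hybridisation, which measures DNA copy number and not expression. All 4 tumours carried the genotype FAH-/- Trp53-/-, and the reference on every array was 1 pool of liver DNA from 3 FAH+/+ Trp53+/+ littermates of the same sex. Loss of Fah, the last enzyme of tyrosine breakdown, injures hepatocytes unless the inhibitor NTBC is given. The full NTBC dose was 7.5 mg/L of drinking water, and the mice were kept on 2.5% of it for 6 months. Every animal is labelled male, and no age or strain is given in the labels. Liver of the same animals outside the tumours is not analysed here, so inherited differences from the pool and changes acquired in the tumour cannot be told apart. Tumour tissue was not sorted, so the share of tumour cells in each sample is unknown.

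In phase 1 of detoxification, cytochrome P450 enzymes of the Cyp1 to Cyp4 families oxidise a compound, and carboxylesterases (Ces) cleave esters and amides. In phase 2, UDP-glucuronosyltransferases (Ugt), glutathione S-transferases (Gst) and sulfotransferases (Sult) attach a water-soluble group that allows export into bile or urine. Most of these genes lie in tandem clusters of close relatives that arose by repeated duplication, and hepatocytes are a main site of their expression.

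Each value is a log2 ratio of tumour over pool, centred so that the median autosomal probe of each array lies at 0. On this scale a loss of 1 of 2 copies in every cell would give -1.0 and a gain of 1 copy 0.58, so the differences below are small, and a mixture of cells would shrink them further. The SD of neighbouring probes around each other was 0.25 in tumour 239 and rose to 0.35 in tumour 252. Tumour 252 went against its label on the sex chromosomes, with medians of 0.73 on X and -2.43 on Y, whereas tumours 239, 240 and 244 lay at -0.09, -0.11 and -0.30 on X and at -0.31, -0.14 and -1.20 on Y. Tumour 244 stood apart in another way, with chromosome medians at or beyond 0.2 in size on 12 of 19 autosomes. Leading counts are therefore also given without each tumour.

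Xenobiotic metabolism genes lay below the pool more often than above it. By limma's test against 0, adjusted with the Benjamini-Hochberg method over all 17965 genes at 0.05, 47 of the 131 (35.9%) were below the pool and 14 (10.7%) above. Over all named genes 17.7% were below and 21.2% above. The median of the 131 gene means was -0.08, against 0.02 for all named genes, and the median of the members was -0.09, -0.09, -0.09 and -0.10 in tumours 239, 240, 244 and 252. The median of the group was thus nearly the same in each tumour, although tumour 244 carried whole-chromosome shifts that the others lacked. Single families did not hold their position in tumour 244. There the median of the Ces genes was 0.27, against -0.23, -0.16 and -0.19 in tumours 239, 240 and 252. That of the Cyp4a genes was -0.40, against -0.31, -0.17 and -0.14.

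**Figure D1:**
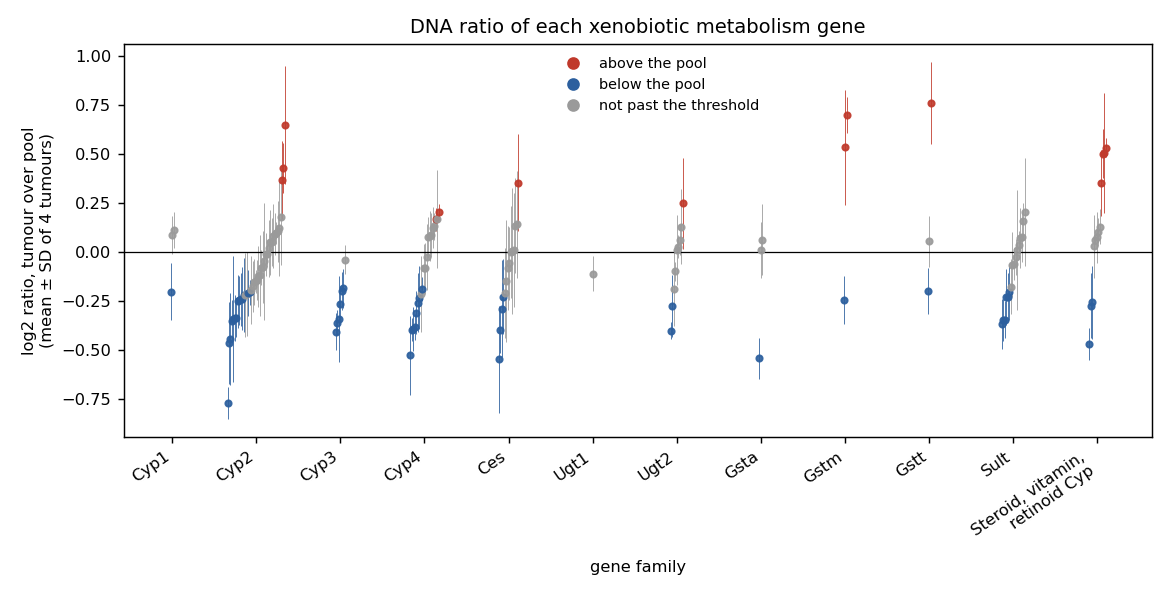
Mean log2 ratio of tumour over pool for each of the 131 genes, by family, with bars of 1 SD over 4 tumours. Blue genes are below and red genes above the pool by limma's adjusted p, grey genes did not pass; the values run from Cyp2j5 at -0.77 to Gstt3 at 0.76.

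Subtracting each tumour's own chromosome median, so that a gene is set against the rest of its chromosome, left 59 of 131 genes (45.0%) below and 17 (13.0%) above in the same limma test. The same test called 22.8% of all named genes below and 26.8% above. Counted without a test, 52 members lay below the pool in all 4 tumours and 22 above (24.4% and 29.7% of all named genes), and 65 lay below their chromosome and 25 above (28.4% and 34.0%). Genes with 3 or more probes leaned further down: 18 of 43 were below the pool and 2 above, and against the chromosome 26 were below and 1 above. Among all genes with 3 or more probes, the same fit called 12.9% below and 16.1% above the pool, and 19.3% and 23.7% against the chromosome. The 45 members with 1 probe leaned less: 13 (28.9%) were below the pool and 9 (20%) above, with a median of -0.03. Of all genes with 1 probe 23.3% were below and 26.8% above. Against the chromosome 16 of the 45 were below and 9 above, where 26.6% and 29.99% of all 1-probe genes were called. With 2 probes, 16 of 43 members were below the pool and 3 above. The steroid, vitamin and retinoid Cyp genes differed in their counts, with 3 of 12 below the pool and 4 above, which leaves 44 below and 10 above among the other 119. Without tumour 252 the genes below the pool numbered 28, and without tumour 240 they numbered 31. Over all genes 12.5% and 12.1% were then called below. Without tumour 239 or 244 the share of all genes called below was 17.4% or 15.8%. Family counts against the pool given later are to be set beside these shares, or with all 4 tumours beside 17.7% below and 21.2% above. Against the chromosome, leaving out tumour 244 gave 39 genes below (29.8%) and 10 above (7.6%), and leaving out tumour 252 gave 9 above (6.9%). Calls over all genes also fell then, to 14.8% below without tumour 244 and to 16.8% above without tumour 252.

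Probe brightness moved with these ratios. Brighter probes lay lower, with a correlation across all autosomal probes of -0.32 and across the 307 member probes of -0.18, and the median brightness of member probes was 10.07 against 9.90 for all probes (mean log2 of both colours). The 307 probes lay at a median of -0.09 from their chromosome, against 0.00 for all probes. With probes split into 5 equal groups by brightness, from dim to bright, members lay at 0.04, -0.09, -0.03, -0.07 and -0.20 and all probes at 0.17, 0.09, 0.03, -0.04 and -0.18, so members were the lower in each group. After a correction for the trend on brightness, 43 members (32.8%) were below the pool and 17 above, where 16.9% of all genes were called below. The normexp values came from raw signals with an offset of 50 and without the dye normalisation of the processed signals. A change under normexp thus cannot be credited to the background correction alone. With normexp 43 members (32.8%) were below and 30 (22.9%) above, with 27.0% of all genes below and 21.1% above. The upward count thus rose more than 1.5 times, and its share no longer lay under that of all genes. Against the chromosome normexp left 42.7% of members below and 29.0% above, where 34.8% and 25.2% of all genes were called. Probe GC content had the same median of 36.67% in members and in all probes. All arrays carried the tumour in Cy5, so a dye effect of a probe that recurs on each array cannot be told apart from a shared difference.

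**Figure D2:**
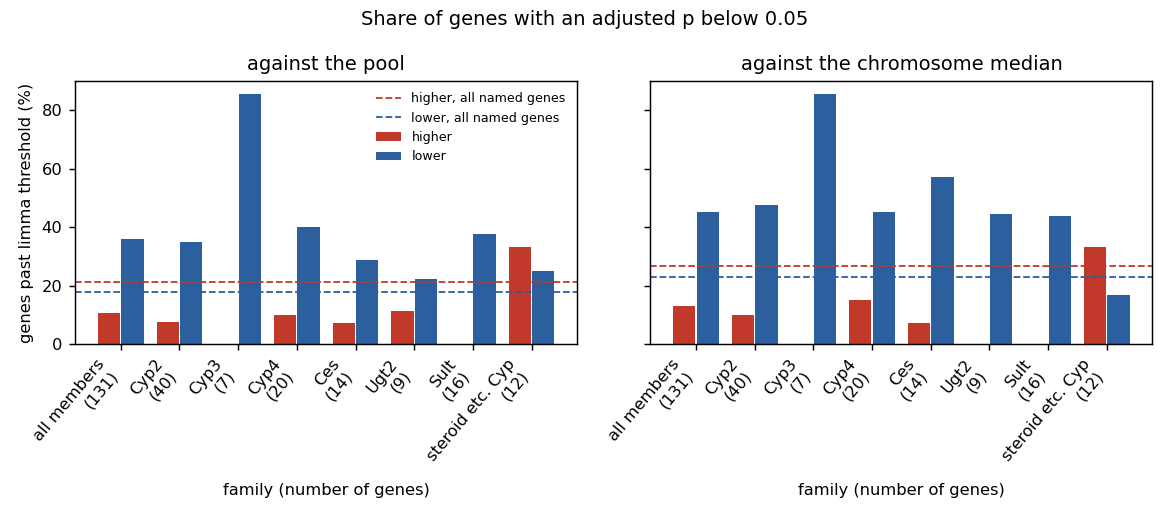
Percent of genes past limma's adjusted threshold above (red) and below (blue), against the pool on the left and against the chromosome median on the right, for all members and each family of 7 or more genes; dashed lines give the same shares over all 17965 named genes. Cyp3 has the tallest blue bar, from 6 of 7 genes.

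Among the Cyp1 genes, which oxidise planar aromatic compounds and are induced through the aryl hydrocarbon receptor, only Cyp1a1 passed the test against the pool. Its mean over 3 probes was -0.08, -0.08, -0.36 and -0.30 in tumours 239, 240, 244 and 252 (-0.20 ± 0.15, SD, n = 4; limma adjusted p = 0.0418). Without any one of tumours 240, 244 and 252 it missed the threshold, at -0.24, -0.15 and -0.17. Tumours 244 and 252 were the low ones, and chromosome 9 itself lay at -0.22 and -0.08 in them. Cyp1a2, its neighbour and the main hepatic enzyme of the pair, read 0.11, 0.18, -0.02 and 0.18 on 1 probe, which did not pass against the pool (limma adjusted p = 0.186). Against its chromosome Cyp1a2 was called above at 0.18 ± 0.06, a direction that turned under normexp. Cyp1b1, an enzyme mostly of tissues outside the liver, averaged 0.09 ± 0.10 on 1 probe of chromosome 17 and did not pass.

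Of the 40 Cyp2 genes, the largest and most varied P450 family, 14 were below the pool and 3 above, and the 3 above were all Cyp2d genes of chromosome 15. Without tumour 240 or 252 the count below was 8. The Cyp2c genes, which oxidise drugs and arachidonic acid, lay on 1 side: 6 of 13 were below the pool, 10 of 13 were below their chromosome, and limma called 0 above in either test, with 0 also at an unadjusted p under 0.05. Their means ran from -0.44 for Cyp2c37, which under normexp was at -0.04 and not called, to 0.09 for Cyp2c39. Without tumour 239 or tumour 252 the count below the pool was 3, and without tumour 244 it was 9.

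In all, 12 of these genes form the Cyp2c cluster of chromosome 19 (mm9 chr19:39090495-40254025, 43 probes). Its mean was -0.26, -0.14, -0.06 and -0.22 in tumours 239, 240, 244 and 252, below the pool in all 4. Flanking probes that belong to no member gene, within the span and 1 Mb to each side, averaged 0.03, 0.01, 0.11 and 0.02. The cluster thus lay below its flanks by a similar amount in each tumour, with a difference of -0.21 ± 0.06 (SD, n = 4). Even here single probes scattered, with an SD of 0.28 among the 43 probe means. In the exact two-sided sign-flip permutation test over 4 tumours, 2 of 16 sign patterns are as extreme as all on 1 side, so no cluster can reach 0.05.

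**Figure D3:**
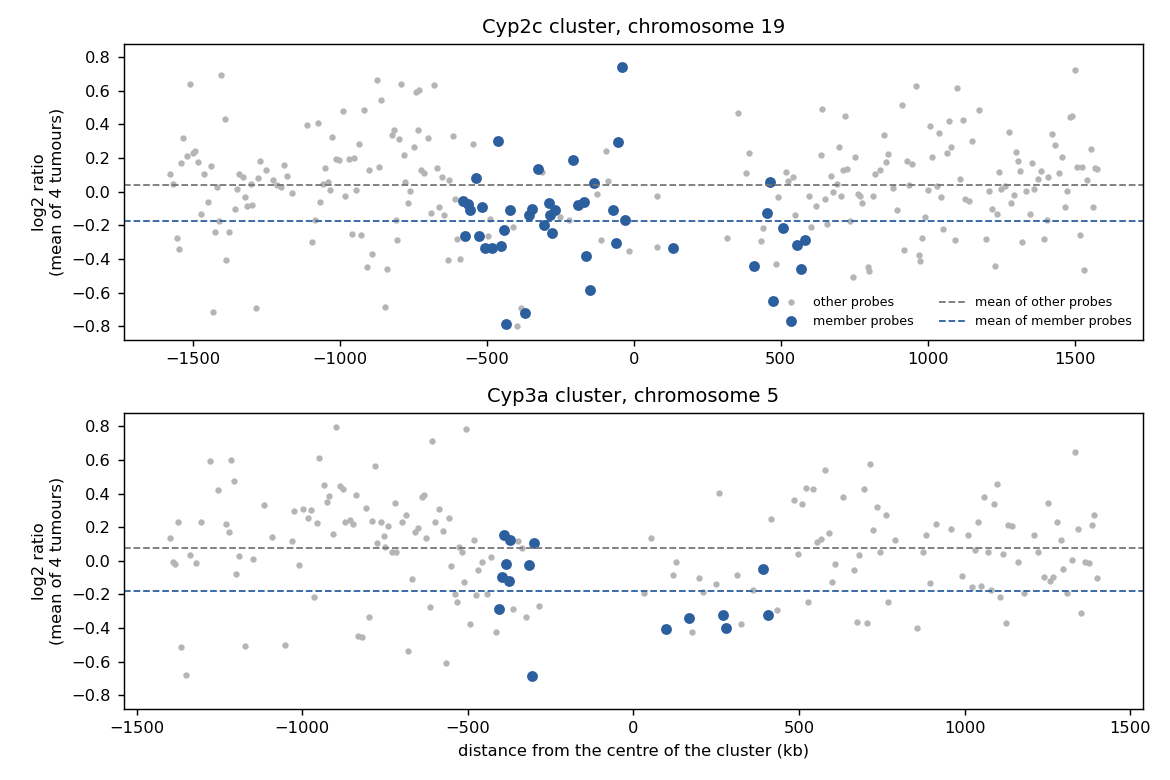
Mean log2 ratio over 4 tumours of each probe, by distance in kb from the centre of the Cyp2c cluster (top) and the Cyp3a cluster (bottom); blue points are member probes, grey points other probes, dashed lines the mean of each. The blue line lies below the grey line in both panels, at -0.17 against 0.04 for Cyp2c and -0.18 against 0.08 for Cyp3a, while single probes of either kind overlap widely.

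The Cyp2j genes of chromosome 4, epoxygenases of arachidonic acid, had 4 of 7 below the pool and 0 above, also at an unadjusted p under 0.05 in limma's test. Without tumour 240, 244 or 252 that count was 2. Cyp2j5, expressed in liver and kidney, had the lowest mean of all members at -0.82, -0.66, -0.83 and -0.78 in tumours 239, 240, 244 and 252 (-0.77 ± 0.08, SD, n = 4; limma adjusted p = 2.91e-05). All 4 tumours lay close together, but the mean came from 1 of its 3 probes. That probe read -2.19, -2.03, -1.93 and -1.90, and the others averaged -0.08 ± 0.17 and -0.22 ± 0.11. With the median over probes in place of the mean, Cyp2j5 stood at -0.22. The sequences of the 3 probes are shown because the low one sits between 2 that lie far closer to 0. Each sequence is as listed in the array file, which gives no strand, in the order of position.
Cyp2j5 first probe, chr4:96299319-96299378: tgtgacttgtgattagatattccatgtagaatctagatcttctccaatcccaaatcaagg
Cyp2j5 low probe, chr4:96307657-96307716: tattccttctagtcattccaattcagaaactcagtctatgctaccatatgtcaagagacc
Cyp2j5 last probe, chr4:96326369-96326428: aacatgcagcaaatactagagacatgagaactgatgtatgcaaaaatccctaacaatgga
Whether a probe lies in an exon or an intron was not assigned here, since no annotation of mm9, the build of the array, was used.

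The Cyp2a, Cyp2b, Cyp2f, Cyp2g, Cyp2s and Cyp2t genes share a cluster on chromosome 7, and 4 of its 11 genes were below the pool. Cyp2f2, which activates naphthalene in the airway, had the lowest mean there at -0.47 (under normexp -0.07, not called), and Cyp2b10, the gene induced through the nuclear receptor Car, averaged -0.08 and did not pass. As a whole the cluster lay at -0.03, -0.07, -0.36 and -0.13, with tumour 244 apart in the direction of its chromosome, which lay at -0.21. Under normexp the cluster mean turned to 0.02 and its difference from the flanks from -0.11 to 0.11. Cyp2e1, which oxidises ethanol and paracetamol, lies far from this cluster near the end of chromosome 7 and read -0.09, 0.11, -0.01 and 0.46 on 1 probe. Its spread over tumours exceeded its mean of 0.12, and it did not pass. Under normexp Cyp2e1 was called below the pool at -0.39.

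The 5 Cyp2d genes lie on chromosome 15, which stood above the pool in every tumour, with medians of 0.26, 0.16, 0.36 and 0.29. Each had 1 probe. Cyp2d26 was the highest at 0.97, 0.25, 0.64 and 0.75 (0.65 ± 0.30, SD, n = 4; limma adjusted p = 0.00104). Cyp2d34 averaged 0.43 ± 0.13 and Cyp2d10 0.37 ± 0.20, and both also passed against the pool. Cyp2d22, often compared with the human drug enzyme CYP2D6, read 0.53, 0.02, 0.15 and 0.00 and did not pass, nor did Cyp2d11 at a mean of 0.08. Under normexp both were called above the pool, Cyp2d22 at 0.58 and Cyp2d11 at 0.37. The cluster mean of 0.34 exceeded that of its flanks, 0.25, by 0.09 ± 0.16, less than the spread between tumours. Set against chromosome 15, Cyp2d26 was called above at 0.38 ± 0.27 and Cyp2d34 at 0.16 ± 0.08, and without tumour 252 neither passed (0.36 and 0.13). All 3 genes called against the pool turned below 0 under normexp, Cyp2d26 to -0.06, Cyp2d10 to -0.10 and Cyp2d34 to -0.52.

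The Cyp3 family, which oxidises the widest range of drugs in the liver, had 6 of 7 genes below the pool and 6 of 7 below their chromosome, and 0 above in either test (0 at an unadjusted limma p under 0.05). Cyp3a11, the main Cyp3a enzyme of mouse liver, read -0.64, -0.38, -0.15 and -0.20 in tumours 239, 240, 244 and 252 on 1 probe (-0.34 ± 0.22, SD, n = 4; limma adjusted p = 0.00939). Every tumour was below 0, with tumour 239 the lowest. Under normexp Cyp3a11 averaged -0.18 and no longer passed against the pool. Cyp3a13 lies alone on the same chromosome, some distance from the other 6 genes, and read -0.21, -0.29, -0.18 and -0.39 (-0.27 ± 0.09; limma adjusted p = 0.00831), and missed the threshold without tumour 252, at -0.23. Its 3 probes disagreed, at 0.25 ± 0.06, -0.24 ± 0.10 and -0.80 ± 0.16, in the order of position.

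The other 6 genes form the Cyp3a cluster of chromosome 5 (mm9 chr5:146113740-146923536, 15 probes). Its mean was -0.21, -0.19, -0.13 and -0.19, and that of its flanks 0.02, 0.04, 0.16 and 0.08. The difference of -0.26 ± 0.03 (SD, n = 4) was the largest of the 12 clusters and varied the least between tumours. Within it, Cyp3a57, with 6 probes, averaged -0.04 and did not pass, and the low values belonged to Cyp3a44 at -0.41, Cyp3a25 at -0.36 and Cyp3a11. Against the chromosome 6 of 7 Cyp3a genes were below whichever tumour was left out, and 5 under normexp. Against the pool the count was 3 without tumour 252, 4 without tumour 239 or 240, and 3 under normexp.

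Of 20 Cyp4 genes, which hydroxylate the end of fatty acid chains, 8 were below the pool and 2 above, with 0 above without tumour 240 or 252. The Cyp4a genes of chromosome 4, targets of the lipid sensor Ppara, had 5 of 7 below and 0 above (0 at an unadjusted limma p under 0.05). Under normexp 3 were below the pool, and against the chromosome 3 were below and 2 above. Cyp4a14 was the lowest at -0.31, -0.43, -0.78 and -0.59 (-0.53 ± 0.20, SD, n = 4; limma adjusted p = 0.000879), and its relative Cyp4a10 averaged -0.23. Both Cyp4a14 probes were low, at -0.31 ± 0.21 and -0.75 ± 0.21, and every tumour lay below 0. The Cyp4a cluster, which includes Cyp4b1 and Cyp4x1, lay at -0.20, -0.16, -0.39 and -0.21, below its flanks by -0.16 ± 0.03. Tumour 244 was the lowest in the cluster and also in the flanks, at -0.22.

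The Cyp4f genes, which inactivate leukotrienes, lie on chromosome 17 but for Cyp4f18 on chromosome 8. Of all 10, 2 were below the pool and 2 above, shares near those of all named genes. The cluster of 9 on chromosome 17 lay at 0.05, 0.03, 0.05 and 0.02, within -0.02 ± 0.04 of its flanks. Cyp4f41-ps, a pseudogene, was the lowest at -0.44, -0.44, -0.31 and -0.40 (-0.40 ± 0.06; limma adjusted p = 0.000842). Cyp4f39, which acts on very long fatty acids of the skin barrier, averaged 0.17 ± 0.06 and just passed (limma adjusted p = 0.0484). It missed the threshold without any one of the 4 tumours (0.15 to 0.20) and again rested on 1 of 5 probes, which read 0.68, 0.66, 0.84 and 1.11 while the other 4 probe means lay between -0.15 and 0.16.

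Carboxylesterases lie in 2 clusters of chromosome 8, where tumour 244 alone had a raised chromosome median, 0.34. Of 14 Ces genes 4 were below the pool (28.6%) and 1 above (7.1%), where 17.7% and 21.2% of all named genes were called. Against the chromosome 8 were below (57.1%) and 1 above, where 22.8% and 26.8% of all named genes were called. Ces1f, which hydrolyses lipids in hepatocytes, was the lowest at -0.66, -0.76, -0.15 and -0.63 (-0.55 ± 0.27, SD, n = 4; limma adjusted p = 0.00169), with both probes low. Tumour 244 stood apart, but set against its chromosome the gene read -0.58, -0.73, -0.49 and -0.55 (-0.59 ± 0.10), with all 4 tumours close. Ces1d, a triacylglycerol hydrolase, went the same way, from -0.39, -0.45, 0.08 and -0.41 against the pool to -0.33 ± 0.07 against the chromosome. Against the pool it missed the threshold without tumour 239, 240 or 252 (-0.26, -0.24 and -0.25), and against the chromosome it passed without each. Ces1g, a lipase that controls hepatic fat export, averaged -0.21 ± 0.23 and did not pass against the pool (limma adjusted p = 0.0764), but was called at -0.25 ± 0.08 against the chromosome.

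The Ces1 cluster, with Ces5a, lay at -0.28, -0.19, 0.18 and -0.28 and its flanks at -0.17, -0.02, 0.32 and -0.11. Although tumour 244 was on the other side of 0, the difference from the flanks was -0.15 ± 0.03 and held in each tumour. Ces5a, an esterase of the male reproductive tract, was the highest there with 3 probes at 0.14 ± 0.27 and did not pass. The Ces2 cluster with Ces4a, on 7 probes, lay at -0.08, -0.04, 0.42 and -0.07, at 0.05 ± 0.05 from its flanks. Ces4a was the gene called above, at 0.35, and turned to -0.07 under normexp. Without tumour 244 the Ces genes below the pool numbered 7, and without any of the other tumours 2.

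Of the 12 steroid, vitamin and retinoid genes, 9 had a mean above 0 and 3 below, with a median of 0.09. Cyp27b1, which activates vitamin D, read 0.46, 0.54, 0.54 and 0.59 on 1 probe (0.53 ± 0.05; limma adjusted p = 0.000184). Cyp26c1, which clears retinoic acid, averaged 0.50 ± 0.13 on 1 probe of chromosome 19, well outside the low Cyp2c cluster. Cyp27a1, the sterol hydroxylase of bile acid synthesis, read 0.05, 0.56, 0.73 and 0.67 (0.50 ± 0.31), with tumour 239 apart, and turned to -0.42 under normexp. Cyp46a1, the cholesterol hydroxylase of neurons and the sole member on chromosome 12, read -0.35, -0.51, -0.50 and -0.53 (-0.47 ± 0.08; limma adjusted p = 0.000427). Chromosome 12 lay at -0.38, -0.20, -0.38 and -0.24 in the same tumours, and against it Cyp46a1, at -0.17 ± 0.16, was not called. Cyp19a1 (aromatase), Cyp20a1 and Cyp39a1 averaged 0.03, 0.10 and 0.06 on 4, 5 and 8 probes and did not pass.

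Among phase 2 enzymes, the glucuronosyltransferases come first. The Ugt1a locus of chromosome 1, where alternative first exons join shared exons to make all Ugt1a enzymes, carried 14 probes, named Ugt1a10 on the array. It read -0.12, -0.23, -0.01 and -0.08 (-0.11 ± 0.09, SD, n = 4), which did not pass against the pool (limma adjusted p = 0.183) and passed against its chromosome at -0.15 ± 0.07 (limma adjusted p = 0.0210). Without tumour 240 or 244 it did not pass, at -0.14 and -0.12. Of 9 Ugt2 genes, which conjugate steroids, bile acids and drugs, 2 were below the pool (22.2%) and 1 above (11.1%). Over all named genes 17.7% were below and 21.2% above, so the share below was near that of all genes. Against the chromosome 4 Ugt2 genes were below and 0 above (0 at an unadjusted limma p under 0.05), where 22.8% and 26.8% of all named genes were called. Ugt2b38 was the lowest at -0.40, and Ugt2a1, best known from the olfactory epithelium, read -0.01, 0.14, 0.36 and 0.51 (0.25 ± 0.23; limma adjusted p = 0.0434). Tumour 239 did not share that position, the gene missed the threshold without tumour 240, 244 or 252 (0.28, 0.21 and 0.16), and under normexp its mean was at -0.01. Without tumour 240 or 252 the Ugt2 genes below the pool numbered 1. The Ugt2 cluster of chromosome 5 lay at -0.06, -0.10, 0.06 and 0.09, and above its flanks in each tumour by 0.10 ± 0.07, the only one of the 12 clusters to do so.

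Glutathione S-transferases held the 2 highest means of all members, each on 1 probe, and the relatives beside them did not share 1 direction. Gstm6 of chromosome 3 read 0.77, 0.57, 0.69 and 0.76 (0.70 ± 0.09; limma adjusted p = 5.67e-05). Gstm1, a main hepatic mu-class enzyme, read 0.68, 0.44, 0.17 and 0.84 (0.53 ± 0.29; limma adjusted p = 0.00253), and Gstm3, which lies between them, -0.33, -0.17, -0.37 and -0.11 (-0.25 ± 0.12). Gstm3 was thus below the pool in all 4 tumours while its neighbours on both sides were above in all 4. Gstt3 of chromosome 10 read 0.48, 0.86, 0.73 and 0.97 (0.76 ± 0.21; limma adjusted p = 0.000157), but its probe was dim, with processed pool signals of 155 to 222 where the median member probe had 1094 in tumour 239. Under normexp it turned to -0.19. Gstt1, a theta-class enzyme of small halogenated compounds, averaged 0.05 ± 0.13 on 2 probes beside it and did not pass, and Gstt4 averaged -0.20 and turned to 0.06 under normexp.

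Gsta3, the mouse enzyme that conjugates the reactive epoxide of aflatoxin, was the lowest transferase at -0.47, -0.68, -0.45 and -0.58 (-0.54 ± 0.10; limma adjusted p = 0.000258). Its 3 probes averaged -1.13 ± 0.12, -0.10 ± 0.12 and -0.40 ± 0.16 in the order of position, so the tumours lay closer to each other at each probe than the 3 probes did. Gsta4 and Gsta2, on chromosome 9, averaged 0.01 and 0.06 and did not pass, but under normexp both turned and were called below, at -0.24 and -0.30. The probes of Gsta3 and of the Gstm genes are shown because neighbouring probes gave opposite or unequal values.
Gsta3 low probe, chr1:21235561-21235620: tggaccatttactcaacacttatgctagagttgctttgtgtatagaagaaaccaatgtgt
Gsta3 middle probe, chr1:21243149-21243208: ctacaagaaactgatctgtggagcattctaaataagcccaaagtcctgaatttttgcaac
Gsta3 last probe, chr1:21255074-21255133: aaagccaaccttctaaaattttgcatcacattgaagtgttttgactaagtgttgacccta
Gstm6, chr3:107744543-107744602: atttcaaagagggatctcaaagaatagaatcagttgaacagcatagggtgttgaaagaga
Gstm3, chr3:107770250-107770309: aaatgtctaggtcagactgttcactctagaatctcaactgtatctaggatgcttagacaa
Gstm1, chr3:107818059-107818118: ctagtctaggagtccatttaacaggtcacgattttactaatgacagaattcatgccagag
Members of these families share long stretches of sequence, and how far a probe also binds a relative of its gene was not tested.

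**Figure D4:**
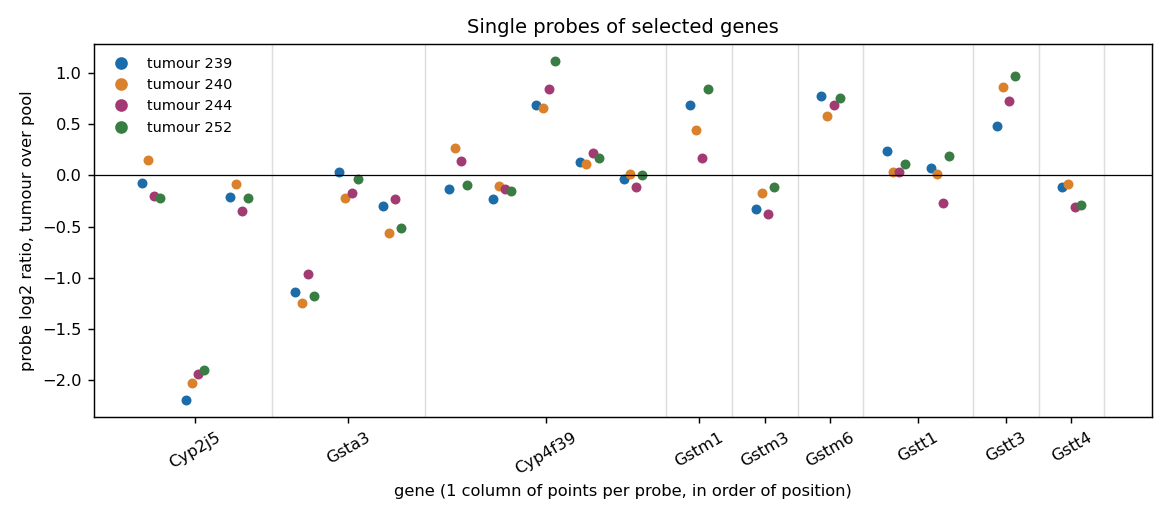
Log2 ratio of tumour over pool at each probe of 9 genes, 1 column of points per probe in order of position, 1 colour per tumour. The low probe of Cyp2j5 lies near -2.0 in all 4 tumours while its other 2 probes lie far closer to 0. In Gsta3 the 3 probe means spread more widely than the tumours do at each probe. The Gstm genes, Gstt3 and Gstt4 have 1 probe each.

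Of 16 sulfotransferases 6 were below the pool and 0 above in limma's test, with 1 above at an unadjusted p under 0.05. Sult2a4, of the subfamily that sulfates steroids and bile acids, was the lowest at -0.26, -0.29, -0.54 and -0.38 (-0.37 ± 0.13, SD, n = 4; limma adjusted p = 0.00229). Sult2a6 averaged -0.35, and Sult2a1, with 1 probe, read 0.09, 0.06, -0.25 and -0.16 and did not pass. Under normexp Sult2a1 was called above the pool at 0.36. The Sult2a cluster of chromosome 7 lay at -0.18, -0.17, -0.36 and -0.20, below its flanks by -0.15 ± 0.05. Tumour 244 was again the lowest, on a chromosome at -0.21, and under normexp the difference from the flanks turned to 0.03. Sult1a1, the main phenol sulfotransferase of liver, read -0.04, 0.34, -0.01 and 0.53 and did not pass, but was called below the pool under normexp at -0.54. Sult4a1, a brain member on chromosome 15, averaged 0.08 ± 0.13 against the pool and was called below its raised chromosome at -0.19 ± 0.12, but not without tumour 244 or 252 (-0.20 and -0.19). Without tumour 252 the sulfotransferases below the pool numbered 3, and under normexp 5 were above.

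Set side by side, 7 of 12 clusters lay below the pool in all 4 tumours and 2 above it. Of 10083 windows of 16 neighbouring autosomal probes, 26.7% lay below the pool in all 4 and 24.1% above. These windows are only a rough guide, since each was an unbroken run of 16 probes with flanks outside the run. The clusters held from 5 to 43 member probes, and their flanks included other probes inside the span. Against their own flanks 8 of 12 clusters were below in all 4 tumours and 1 above, where 30.4% of the windows were below and 31.7% above. The 8 were Cyp3a, Cyp2c, Cyp4a, Ces1, Sult2a, the Cyp1a cluster of chromosome 9, the Cyp2 cluster of chromosome 7 and Cyp2j, with differences from -0.26 to -0.06. The Cyp1a cluster has 5 probes, the fewest allowed, and includes the steroid gene Cyp11a1. Cyp11a1 was its lowest gene at -0.26, while Cyp1a2 lay at 0.11. Without Cyp11a1 the cluster would fall short of 5 probes and not be counted. The Cyp2j difference of -0.06 rested on the low Cyp2j5 probe: without it, an alternative chosen after seeing the data, the cluster lay at -0.13 as its flanks did, and above them in tumours 240, 244 and 252, which left 7 clusters below. With the median over probes in place of the mean, 6 clusters were below their flanks and 6 below the pool. The Cyp2d, Cyp4f and Ces2 clusters did not lie on 1 side of their flanks in all 4 tumours. The exact permutation test gave each of the 8 its smallest possible p, which was 0.167 after adjustment over 12 clusters. Without tumour 252 the counts were the same, and under normexp 4 clusters were below their flanks and 3 above.

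**Figure D5:**
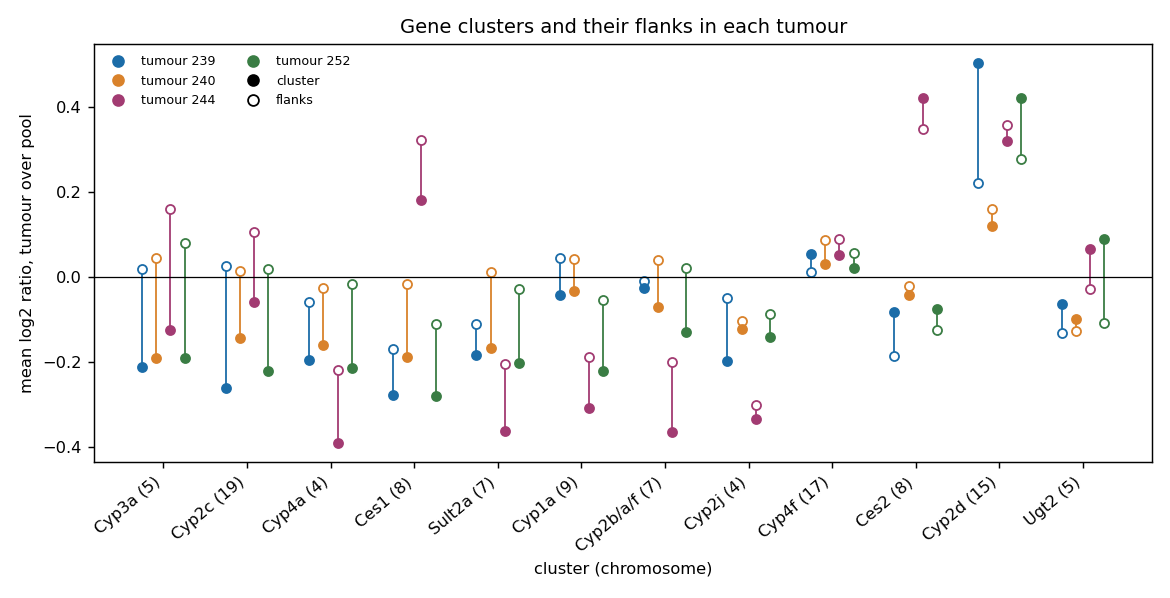
Mean log2 ratio of tumour over pool of each of 12 gene clusters (filled circles) and of its flanking probes (open circles), with a line joining them in each tumour. In the Cyp3a, Cyp2c, Cyp4a, Ces1 and Sult2a clusters the filled circle lies below the open one in all 4 tumours, also where tumour 244 is shifted as a whole.

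Single member probes repeated closely between tumours. Relative to their chromosome, 18 of 307 member probes (5.86%) lay at -0.5 or lower in all 4 tumours, and 4 (1.30%) at 0.5 or higher. Over all autosomal probes these shares were 3.12% and 0.971%. The 4 high probes belonged to Cyp4f39, Cyp2c39, Gstm6 and Cyp2j12, and the 2 at -1 or lower in every tumour were the low probes of Cyp2j5 and Gsta3 given above. Across member probes the deviations from the chromosome correlated between tumours at 0.74 to 0.89, and across all autosomal probes at 0.74 to 0.88, which is given as a description, since all arrays share the pool, the dyes and the probes. The xenobiotic probes thus repeated between tumours to about the degree that other probes did.

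Other genes of the same pathway, listed by role, were also more often below the pool than above it. Of 62 genes listed, 56 had a probe under their name on chromosomes 1 to 19, and 14 of these 56 were below the pool and 3 above, where 17.7% and 21.2% of all named genes were called. By role, 3 of 9 regulators were below, 1 of 4 electron-transfer partners, 3 of 16 further phase 1 enzymes, 5 of 13 further phase 2 enzymes and 2 of 14 transporters. The share of phase 1 enzymes was thus near that of all named genes, and that of transporters under it. Against the chromosome 17 of the 56 were below and 6 above, where 22.8% and 26.8% of all named genes were called. The regulator Ahr, on chromosome 12, lay at -0.29 against the pool and at 0.02 against its chromosome. Cyb5r3, the reductase of cytochrome b5, was the lowest at -1.22, -1.47, -1.03 and -1.18 on 1 probe of chromosome 15, against the gain of that chromosome. Slc10a1, the bile acid importer of hepatocytes, averaged -0.79 ± 0.21 and Gstz1, which acts just upstream of Fah in tyrosine breakdown, -0.70 ± 0.17, both on chromosome 12. The 3 genes above the pool were the exporters Abcb1b at 0.26 ± 0.06 on 6 probes and Abcc3 at 0.23 ± 0.12, and Nnmt, which methylates nicotinamide, at 0.22 ± 0.19. Nnmt turned to -0.47 under normexp, and without tumour 252 limma called 0 of this list above (2 at an unadjusted p under 0.05). Abcc3 also missed the threshold without tumour 240, 244 or 252, at 0.17 to 0.25.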

How the data were processed

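The data are 4 Agilent mouse CGH arrays of 2 colours, with tumour DNA in Cy5 and pool DNA in Cy3. Signals were extracted with Agilent Feature Extraction 12.0.0 per the submitters' processing notes, or version 12.0.1.1 per the file headers. Per the file headers, the deposited processed intensity of each colour is background-subtracted and dye-normalised, and the raw mean and background intensity are scanner brightness. The authors' value table holds log10 ratios of tumour over pool, with column medians of 0.0023, 0.00233, 0.00131 and 0.000212, not centred. Flags per spot for outliers and signal above background are yes or no values, per the file headers.

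Of 180880 spots per array, 6575 controls and 95 to 120 outlier spots were dropped. Repeated spots were averaged by probe, and the log2 ratio of the processed signals was shifted to an autosomal median of 0, without any loess or quantile normalisation. Between 98.8% and 99.9% of spots were well above background per colour, and 303 of 307 member probes were so in both colours on all arrays. The number of arrays, 4, limits the precision. Gene means were tested against 0 with limma 3.58.1 (R 4.3.3, lmFit, eBayes) over 17965 genes, with Benjamini-Hochberg adjustment at 0.05, and again after subtracting chromosome medians. The pool enters as 1 sample, so the test leaves out the spread among normal animals. Clusters were 2 or more genes of a prefix with gaps of at most 1 Mb and 5 or more probes. In simulated data on 17965 genes, 86 of 100 shifts of 0.4, 2 of 100 of 0.2 and 0 of 17765 unchanged genes were called against the pool. The simulation removed each gene's own mean and shuffled each tumour over genes, so a probe or dye effect recurring on each array was absent. The 0 calls therefore say nothing of such effects. Python 3.11.15 was used otherwise. Current symbols matched for 130 members and an older one for 1.

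The members and lists were chosen with earlier results of these data known. Named were, by family, the members with the lowest and highest means among those with 3 or more probes, up to 10 with the largest means among those called with 1 sign (against the pool and against the chromosome), all on chromosomes 12 and 15, 16 fixed names of which 13 are members, every cluster, and the 3 highest and lowest called genes of the pathway list; any further gene was named with its values in view. Alternatives were centring on the mode, normexp (offset 50), the authors' table, probes well above background, the median over probes, outliers kept, robust eBayes, genes with 3 or more probes, each tumour left out, other families left out and a gap of 0.25 Mb; corrections for probe brightness and GC and leaving the lowest member probe out of the clusters were added after seeing the data.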

Additional observations from a re-analysis of the deposited data

Results flagged for a closer look

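Of 110 values tested with Dixon's test for a sample far from the others (chance gives about 1 in 20), 4 stood out. In tumour 244 the Ces2 cluster lay at 0.42 and Ces1d at 0.079, both above the other 3 tumours, and chromosome 8 itself lay at 0.34 there. Tumour 239 had the lowest Cyp4f39 mean, 0.081. Against chromosome 15, Cyp2d10 lay at 0.34 in tumour 252, above the others. Gene and chromosome values share probes and tumours, so these are not independent.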

How the results depend on the processing

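No paired analysis was possible because all 4 tumours form 1 group and share 1 pool. Of 144 alternative values of the leading counts, 121 lay within 1.5 times the reported count. The others were as follows. Under normexp, 30 members (22.9%) were above the pool and 38 (29.0%) above their chromosome, where 21.1% and 25.2% of all genes were called. It also gave 6 other detoxification genes and 0 clusters above the pool, and 3 clusters above and 4 below their flanks. A fit of genes with 3 or more probes alone (not the full fit counted above) put 2 of 43 members above the pool and 22 below. The share below was 51.2%, against 15.3% of all genes fitted. Against the chromosome 4 were above and 30 below (9.3% and 69.8%), with 30.2% and 24.2% of all genes fitted. In that fit 6 of 35 other detoxification genes were below the pool (17.1%), near the 15.3% of all genes. Centring on the mode and the median over probes each left 1 cluster above the pool, the former also 1 detoxification gene. The correction for brightness, chosen after seeing the data, gave 2 clusters above their flanks. Leaving out 1 tumour gave 28 to 44 members below and 11 to 14 above the pool, 39 to 61 below and 9 to 20 above the chromosome, 0 to 3 detoxification genes above, and 1 to 2 clusters above their flanks.

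Directions were compared only for the genes named by rule and the clusters. Among these, directions turned under normexp against the pool for Ugt2a1 (-0.0069), Gstt3 (-0.19), Cyp2d26 (-0.057), Cyp27a1 (-0.42), Cyp2d10 (-0.10), Cyp2d34 (-0.52), Cyp1a2 (-0.18), Cyp2e1 (-0.39), Sult1a1 (-0.54), Sult2a1 (0.36), Nnmt (-0.47) and the Cyp2 cluster of chromosome 7 (0.022). Against the chromosome they turned for Cyp39a1 (0.19), Gstt3 (-0.14), Cyp2d26 (-0.36), Cyp27a1 (-0.47), Cyp2d10 (-0.41), Cyp2d22 (0.27), Cyp2d34 (-0.82), Cyp1a2 (-0.091), Cyp2e1 (-0.34), Sult1a1 (-0.49), Sult2a1 (0.41) and Nnmt (-0.38), and against flanks for the Cyp2 cluster (0.11) and the Sult2a cluster (0.026) of chromosome 7. With the brightness correction Cyp2d34 (-0.045) and Sult2a1 (0.17) turned against the chromosome, and without the lowest member probe the Cyp2j cluster turned against its flanks (0.0056). Some named genes that were not called against the pool kept their direction but were called above it under normexp. Among them were Cyp2d22 (0.58), Cyp2d11 (0.37), Cyp1b1 (0.19), Cyp20a1 (0.22), Cyp39a1 (0.28) and Gstt1 (0.28). Members outside the comparison of directions turned as well. Of those called against the pool, Cyp3a59 (0.14), Cyp26b1 (0.071), Cyp11a1 (0.033), Cyp2a12 (0.019), Gstt4 (0.058), Cyp4f16 (-0.11) and Ces4a (-0.066) changed sign against the pool under normexp. The cause was not tested. The single probe of Gstt3 was dim, yet all 131 members were still tested with only probes well above background. The precision of small shifts is limited by 4 arrays.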
